A study of Homo sapiens with 12 samples.

Results

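Messenger RNA of 10 genes that restrain or read out signalling by bone morphogenetic proteins (BMPs) and transforming growth factor β (TGFβ) was followed in HEK293T cells, a human embryonic kidney line, with and without TNFα. The genes were SMAD6, SMAD7, SMAD9, ID1, ID2, ID3, BAMBI, SKIL, SMURF1 and SMURF2, 10 of 33093 genes with a usable symbol in the count table. They were chosen by name around SMAD6, which was selected on its lower read count after TNFα in these same samples. The SMAD6 difference with TNFα is therefore given as a description with no test. All 10 genes were among the 14383 that passed the filter on low counts.

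The samples were poly(A)-selected RNA from 12 cultures in 4 groups of 3, namely WT cells left untreated, WT cells given 10 ng/ml TNFα for 3 h, and NFKB1S80A cells under the same 2 conditions. NFKB1S80A cells are HEK293T cells edited with CRISPR/Cas9 so that a serine of NF-κB p50, the DNA-binding protein made from NFKB1, is replaced by alanine. According to the study's methods the edited cells were grown from single cells by serial dilution, so that the edit and other differences of a clone cannot be told apart in any comparison of NFKB1S80A with WT cells. The 3 samples of each group were generated independently.

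BMPs and TGFβ bind pairs of serine/threonine kinase receptors, which phosphorylate receptor-regulated SMAD proteins that enter the nucleus with SMAD4 and switch on target genes. Several of those targets act back on the pathway. The inhibitory proteins SMAD6 and SMAD7 occupy the receptors and recruit the ubiquitin ligases SMURF1 and SMURF2, BAMBI is a decoy receptor without a kinase domain, SKIL (SnoN) is a nuclear co-repressor, and the ID proteins are classical BMP targets that bind E proteins and keep them off DNA. TNFα acts through a separate receptor that activates NF-κB.

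Total counts ranged from 15624878 to 20889577 per sample. NFKBIA, an NF-κB target that encodes IκBα, was raised by TNFα in both genotypes, with log2 fold changes of 3.52 ± 0.10 (SE) in WT and 3.66 ± 0.10 in NFKB1S80A cells. NFKB1 itself was raised by 1.27 ± 0.10 and 1.56 ± 0.10 on the log2 scale, and a gene-level count does not read the edit. The HEK293T markers LIN28B, NEFL and VIM had at least 650 counts in every sample and PAX2 had 9 to 50, whereas NEFM had 1774 to 2165 counts in WT samples and 3 to 6 in NFKB1S80A samples. Of 16 markers of leukocytes, endothelium, fibroblasts, hepatocytes and skeletal muscle, 13 had at most 10 counts in every sample, and the summed fibroblast markers ranged from 267 to 336 counts in WT and from 121 to 165 in NFKB1S80A samples, mostly from COL1A1. Their part in the results below was not tested. NFKB1S80A untreated replicate 2 stood apart from the other samples on the second principal component, at -39.0 against -11.7 to 23.1, and values without it are given beside the results for SMAD6, ID2, ID3 and BAMBI. In WT TNFα replicate 3 the deviations from the group mean followed the GC content of genes most strongly (Spearman correlation 0.54). Replicates 1 and 2 of that group had -0.31 and -0.46.

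The promoters of the 3 genes with the lowest adjusted p or the largest difference after TNFα are shown because SMAD-bound elements are described for genes of this kind. Each runs from 250 bases before to 50 bases after a RefSeq transcript start in GRCh38.p14, 5′ to 3′ on the gene's strand, with every GTCT, the core of the SMAD-binding element, in capitals on either strand (AGAC is GTCT on the opposite strand). The windows lie at chr15:66701986-66702285 on the plus strand for SMAD6, chr2:8681806-8682105 on the plus strand for ID2 and chr1:23559452-23559751 on the minus strand for ID3.
SMAD6: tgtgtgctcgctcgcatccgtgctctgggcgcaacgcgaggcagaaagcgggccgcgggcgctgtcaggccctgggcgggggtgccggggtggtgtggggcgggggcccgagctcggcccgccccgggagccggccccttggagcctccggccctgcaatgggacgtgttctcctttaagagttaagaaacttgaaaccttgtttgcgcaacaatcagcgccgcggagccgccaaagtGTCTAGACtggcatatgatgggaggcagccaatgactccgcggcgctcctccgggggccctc
ID2: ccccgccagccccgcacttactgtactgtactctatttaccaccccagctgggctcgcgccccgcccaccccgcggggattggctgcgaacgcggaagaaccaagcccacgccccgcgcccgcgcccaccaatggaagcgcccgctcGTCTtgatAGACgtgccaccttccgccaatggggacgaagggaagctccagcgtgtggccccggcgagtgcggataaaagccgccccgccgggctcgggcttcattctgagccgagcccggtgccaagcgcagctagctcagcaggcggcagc
ID3: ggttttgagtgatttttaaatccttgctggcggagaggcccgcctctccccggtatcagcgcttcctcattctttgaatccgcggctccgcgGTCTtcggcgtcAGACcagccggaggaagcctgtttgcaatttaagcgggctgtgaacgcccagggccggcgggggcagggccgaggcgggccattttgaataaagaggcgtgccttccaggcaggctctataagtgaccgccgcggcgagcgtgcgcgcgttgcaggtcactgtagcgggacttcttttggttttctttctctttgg
All 10 genes had a promoter in the table and all 10 held a GTCT, as did 84.0% of the 35116 promoters of this length, so that the match singles out none of them. In SMAD6 the matches on the 2 strands abut as GTCTAGAC, a run held by 1 of the 10 genes and by 0.2% of all promoters; this run was looked for after the sequence was seen. GGCGCC, a BMP-response element core, was held by the promoters of 2 of the 10 genes (BAMBI with 3 matches and SKIL with 1) and by 19.22% of all promoters. GGCGCC followed after 5 bases by GTCT was found in none of the 10 and in 0.1% of all, and the κB consensus, searched on both strands, in none of the 10 and in 5.91% of all. A match or its absence in such a window says nothing of whether a factor binds the gene.

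SMAD6, the inhibitory SMAD that acts mainly on BMP receptors, is read from the plus strand of chromosome 15 (GRCh38 66702236 to 66782849, ENSG00000137834.15). Read counts below are normalised, that is, scaled to a library of the mean TMM-adjusted size. SMAD6 had 343, 360 and 330.0 normalised counts in the 3 untreated WT samples and 237, 218 and 224 in the 3 WT samples with TNFα. In NFKB1S80A cells it had 476, 406 and 442 without TNFα and 272, 287 and 247 with it. In both genotypes every TNFα sample lay below every untreated sample. Means were 344 ± 14.9 (SD, n = 3) and 226 ± 9.39 in WT cells, and 441 ± 35.1 and 269 ± 20.2 in NFKB1S80A cells. The log2 difference with TNFα was -0.60 ± 0.10 (SE) in WT and -0.72 ± 0.10 in NFKB1S80A cells, or -34.2% and -39.2%. Over 20 other settings of the fit it ranged from -0.64 to -0.54 in WT and from -0.80 to -0.66 in NFKB1S80A cells, and without NFKB1S80A untreated replicate 2 the second value was -0.78.

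SMAD7, the inhibitory SMAD of both branches of the pathway (chromosome 18, 48919853 to 48950965, minus strand), had lower values with TNFα of smaller size. It had 422, 357 and 346 normalised counts in untreated WT samples and 324, 315 and 306 with TNFα. The corresponding values in NFKB1S80A cells were 462, 389 and 388 without and 348, 350.4 and 321 with TNFα. The groups did not overlap in either genotype, but the log2 fold changes of -0.25 ± 0.11 (adjusted p = 0.721) and -0.28 ± 0.11 (adjusted p = 0.362) did not pass the threshold in edgeR's quasi-likelihood test, whose Benjamini-Hochberg adjustment at 0.05 over all 14383 genes is used throughout. SMAD9, which encodes a receptor-regulated SMAD of the BMP branch and is itself induced by BMPs (chromosome 13, 36844831 to 36920887, minus strand), had 412 to 468 normalised counts in untreated and 314 to 423 in TNFα-treated WT samples. In NFKB1S80A cells it had 514 to 578 without and 351 to 470.1 with TNFα. Its groups overlapped in WT cells (log2 fold change -0.20 ± 0.13, adjusted p = 0.997) and not in NFKB1S80A cells (-0.38 ± 0.13, adjusted p = 0.286).

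**Figure D1:**
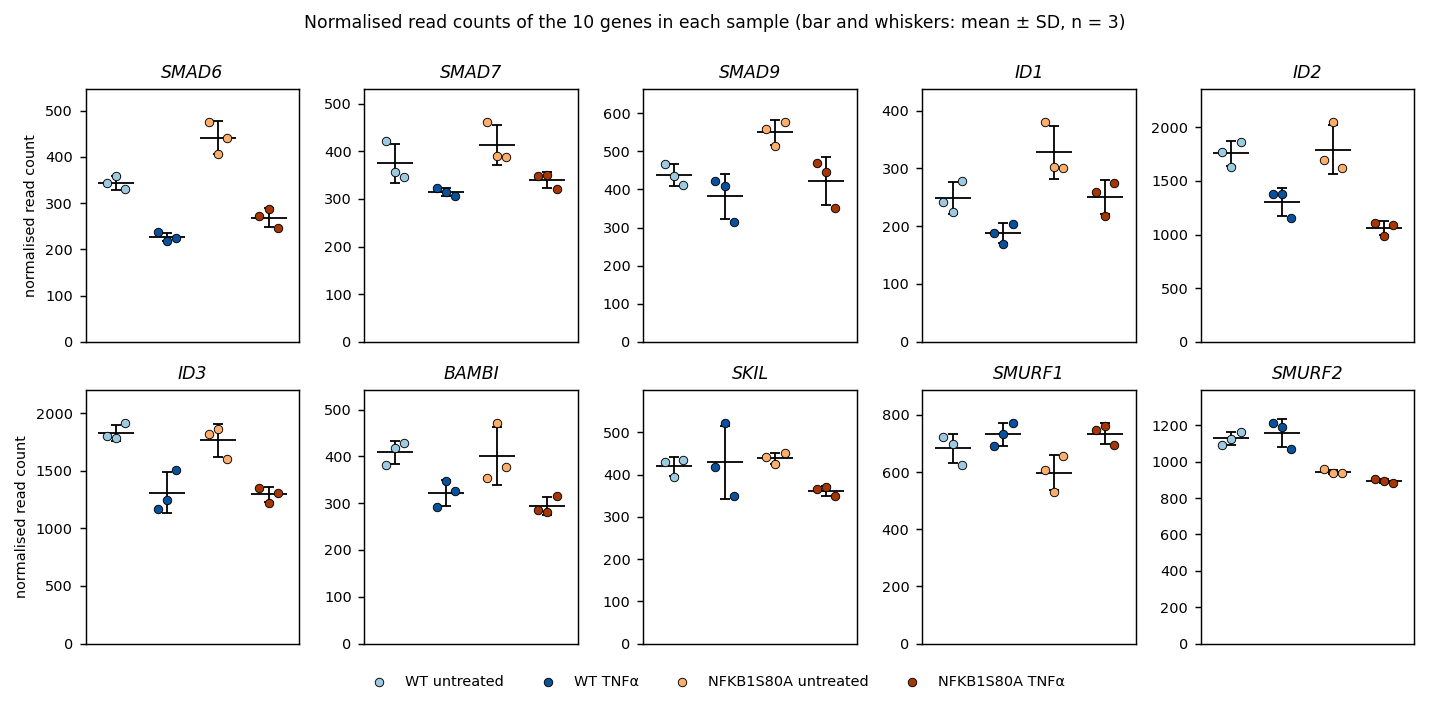
Normalised read counts of the 10 genes in each of the 12 samples, 1 panel per gene with its own axis from 0. Points are samples coloured by group, and bars with whiskers are the mean ± SD of 3 samples. The SMAD6 points with TNFα, 218 to 237 in WT and 247 to 287 in NFKB1S80A cells, sit below the untreated points of the same genotype, and the SMURF2 points of NFKB1S80A cells sit below those of WT cells.

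Of the ID genes, ID3 passed the threshold in both genotypes and ID2 in NFKB1S80A cells, in each case with lower counts after TNFα. Both genes stand in lists that the study drew from these samples, and they were chosen with results of these data known. The p-values of ID2 and ID3 with TNFα are therefore not free of that choice. ID3 (chromosome 1, 23557926 to 23559501, minus strand) had 1799, 1786 and 1912 normalised counts in untreated WT samples and 1170, 1245 and 1510 with TNFα. In NFKB1S80A cells it had 1822, 1866 and 1603 without and 1354, 1223 and 1308 with TNFα. The highest TNFα sample lay below the lowest untreated sample in each genotype. ID3 fell by 0.49 ± 0.10 on the log2 scale in WT cells (adjusted p = 0.0298) and by 0.44 ± 0.10 in NFKB1S80A cells (adjusted p = 0.0369). Both calls were close to the threshold. With 1 sample left out at a time, the call in WT cells held in 6 of 12 fits, those without WT TNFα replicate 3, any NFKB1S80A untreated sample, or NFKB1S80A TNFα replicate 1 or 3, and was lost in the other 6. The call in NFKB1S80A cells held in 3 of 12, those without WT TNFα replicate 1, WT TNFα replicate 3 or NFKB1S80A untreated replicate 3, with -0.40 and adjusted p = 0.0816 when NFKB1S80A untreated replicate 2 was left out. The estimates themselves stayed between -0.60 and -0.41 in WT and between -0.51 and -0.40 in NFKB1S80A cells. In WT cells -0.60 came without WT TNFα replicate 3 (adjusted p = 0.00313) and -0.41 without WT TNFα replicate 1 (adjusted p = 0.211).

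ID2 (chromosome 2, 8678845 to 8684461, plus strand) had 1773, 1630 and 1866 normalised counts in untreated WT samples and 1380, 1376 and 1153 with TNFα. In NFKB1S80A cells it had 1697, 2053 and 1623 without and 1108, 984 and 1089 with TNFα. All TNFα samples lay below all untreated samples of both genotypes, and the 3 NFKB1S80A samples with TNFα were the lowest of the 12. ID2 fell by 0.75 ± 0.10 on the log2 scale in NFKB1S80A cells (adjusted p = 0.000948), a fall of 40.7%, and passed the threshold in each of 20 other fits; without NFKB1S80A untreated replicate 2 the log2 fold change was -0.65 (adjusted p = 0.00101). In WT cells its log2 fold change of -0.43 ± 0.10 missed the threshold (adjusted p = 0.0982), and 4 of the 20 other fits put it past, namely DESeq2, no filter, the 6 samples alone and the fit without NFKB1S80A untreated replicate 2 (adjusted p = 0.0146), with adjusted p from 0.00971 to 0.415 over those fits. ID2-AS1, a non-coding gene on the opposite strand, shares 145 bases of exon with ID2, and the strand setting of the authors' counting is not given in the sources used here.

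ID1 (chromosome 20, 31605283 to 31606515, plus strand) had 242, 224 and 278 normalised counts in untreated WT samples and 189, 170 and 205 with TNFα. In NFKB1S80A cells the values were 381, 302 and 300.4 without and 259, 217 and 275 with TNFα. The groups did not overlap in either genotype, with log2 fold changes of -0.40 ± 0.14 (adjusted p = 0.481) and -0.39 ± 0.13 (adjusted p = 0.299) that did not pass the threshold. ID4, the fourth ID gene and not among the 10, had a log2 fold change of -0.01 ± 0.13 in WT cells (adjusted p = 0.998) and -0.39 ± 0.13 in NFKB1S80A cells (adjusted p = 0.30).

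BAMBI, the decoy receptor (chromosome 10, 28677510 to 28682932, plus strand), had 381 to 428 normalised counts in untreated WT samples and 293 to 348 with TNFα. In NFKB1S80A cells it had 354 to 471 without and 281 to 315 with TNFα. Neither pair of groups overlapped, and neither log2 fold change passed the threshold (-0.34 ± 0.12, adjusted p = 0.465, in WT cells and -0.44 ± 0.12, adjusted p = 0.117, in NFKB1S80A cells). With DESeq2 the second had an adjusted p of 0.0416, and without NFKB1S80A untreated replicate 2 it was -0.32 (adjusted p = 0.328). SKIL, the co-repressor (chromosome 3, 170357342 to 170396835, plus strand), had 417, 522 and 348 normalised counts in the 3 WT samples with TNFα, which spanned the untreated range of 395 to 435. Its log2 fold change was 0.03 ± 0.12 in WT cells (95% confidence interval -0.23 to 0.29, adjusted p = 0.997). In NFKB1S80A cells the TNFα samples, at 349 to 370.5, lay below the untreated ones at 425 to 451, with a log2 fold change of -0.28 ± 0.12 (adjusted p = 0.481). A correction for GC content brought that value to -0.10. Of the bases summed over all SKIL transcripts 35.8% are G or C, the lowest such share of the 10 genes.

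Neither ubiquitin ligase gene passed the threshold with TNFα, and SMURF1 had a higher mean with it in both genotypes. SMURF1 (chromosome 7, 99027440 to 99144108, minus strand) had 626 to 723 normalised counts in untreated and 692 to 770.3 in TNFα-treated WT samples, with a log2 fold change of 0.10 ± 0.09 (95% confidence interval -0.10 to 0.30, adjusted p = 0.997). In NFKB1S80A cells its 3 TNFα samples, at 693 to 762, lay above the untreated ones at 531 to 655, with a log2 fold change of 0.29 ± 0.09 that did not pass the threshold (adjusted p = 0.26). SMURF2 (chromosome 17, 64542282 to 64662307, minus strand) had log2 fold changes with TNFα of 0.04 ± 0.07 (95% confidence interval -0.12 to 0.19, adjusted p = 0.997) in WT cells and -0.08 ± 0.07 (-0.24 to 0.08, adjusted p = 0.774) in NFKB1S80A cells. Exons of SMURF1 share 735 bases with TRRAP and exons of SMURF2 share 180 bases with CEP95, both on the opposite strand, so that without the strand setting these counts are uncertain where the genes overlap.

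Over the 9 genes other than SMAD6, 1 passed the threshold in WT cells with TNFα (ID3, lower), beside 0.688% of all tested genes in either direction and 0.111% lower. In NFKB1S80A cells 2 passed (ID2 and ID3, both lower), beside 1.26% in either direction and 0.292% lower. By the samples alone, 5 of 9 were lower with no overlap in WT cells, where 6.62% of all tested genes were, and 8 of 9 in NFKB1S80A cells, where 7.61% were; SMURF1 was the remaining one, higher with no overlap. The median log2 fold change of the 9 genes was -0.25 in WT and -0.38 in NFKB1S80A cells, against -5.17e-05 and -0.0019 over all tested genes. SMAD6, ID2 and ID3 also stand in lists that the study drew from these samples, and all 10 genes were chosen with results of these data known, so that these counts are a description of the 10 and not independent evidence of their direction.

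**Figure D2:**
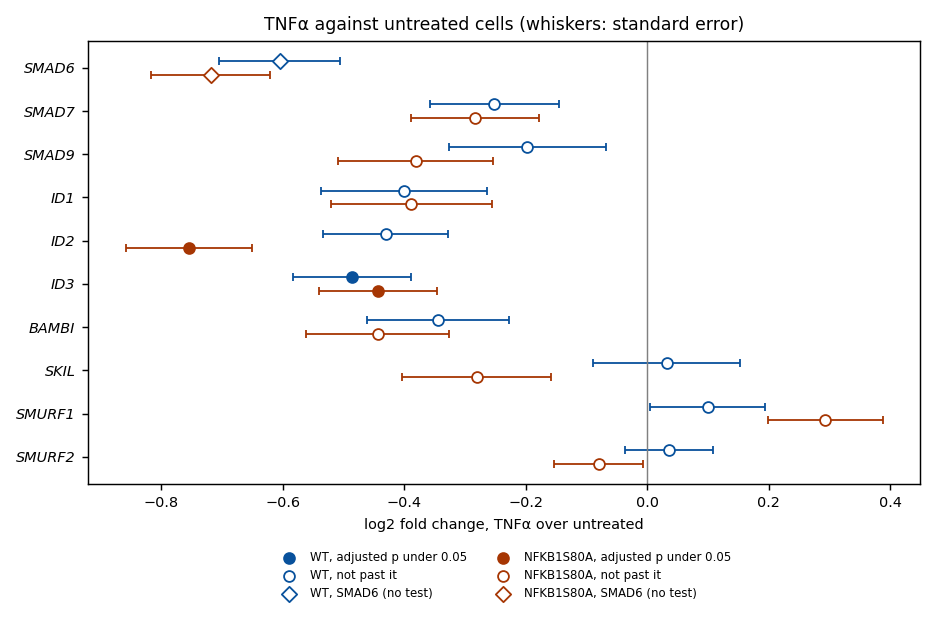
Log2 fold change with TNFα of each gene in WT (blue) and NFKB1S80A cells (brown), with whiskers of 1 standard error. Filled circles passed an adjusted p of 0.05, and diamonds mark SMAD6, for which no test is given. Filled circles stand at -0.49 and -0.44 for ID3 and at -0.75 for ID2, and SMURF1 lies to the right of 0 in both genotypes.

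Comparison of NFKB1S80A with WT cells asks whether the level of these genes differs between the edited line and WT cells, before and after TNFα. In untreated cells SMAD6 was higher in NFKB1S80A than in WT cells by 0.36 ± 0.10 on the log2 scale (adjusted p = 0.0384), a rise of 28.4%, and the 3 NFKB1S80A samples, from 406 to 476 normalised counts, all lay above the 3 WT samples, from 330.0 to 360. The call held in 4 of 12 fits with 1 sample left out, those without WT TNFα replicate 3, NFKB1S80A untreated replicate 2 (0.42, adjusted p = 0.0201) or NFKB1S80A TNFα replicate 1 or 3, and was lost in the other 8, with estimates from 0.30 to 0.42. It was also lost with no filter on low counts (adjusted p = 0.081) and with the 6 untreated samples alone (adjusted p = 0.103). After TNFα the difference was 0.25 ± 0.10 (95% confidence interval 0.03 to 0.46, adjusted p = 0.163). Both comparisons use samples on which SMAD6 was chosen, so their p-values are not free of that choice.

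SMURF2 was lower in NFKB1S80A cells. Its 3 samples with TNFα had 904, 895 and 881 normalised counts against 1211, 1191 and 1069 in WT cells, with no overlap. It was lower by a log2 fold change of -0.37 ± 0.07 (adjusted p = 0.00718), and the call held in each of 20 other fits, with adjusted p from 0.000143 to 0.0406. In untreated cells it had 957, 939 and 937 against 1094, 1126 and 1165, again with no overlap, and a log2 fold change of -0.26 ± 0.07 that missed the threshold (adjusted p = 0.0519). Of 20 other fits 5 put the untreated difference past it, among them the fit without WT TNFα replicate 3, and adjusted p ranged from 0.00862 to 0.187.

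ID1 was higher in NFKB1S80A cells with no overlap in both conditions, by 0.40 ± 0.13 untreated (adjusted p = 0.0924) and 0.42 ± 0.14 after TNFα (adjusted p = 0.0842), neither past the threshold. With a correction for GC content ID1 had 0.47 untreated (adjusted p = 0.0313) and 0.36 after TNFα (adjusted p = 0.103). The fit with a replicate block gave adjusted p = 0.041 untreated and 0.0401 after TNFα. The labels do not say what same-numbered samples share, and the main fit has no block. SMAD9 had a log2 difference of 0.33 ± 0.13 in untreated cells (adjusted p = 0.158), also with no overlap, and 0.15 ± 0.13 after TNFα (adjusted p = 0.561). ID2 did not differ beyond its spread in untreated cells (0.03, 95% confidence interval -0.19 to 0.25; -0.0776 without NFKB1S80A untreated replicate 2) and had a value of -0.30 ± 0.10 after TNFα (adjusted p = 0.102). That value passed without NFKB1S80A untreated replicate 2 (-0.30, adjusted p = 0.0325), which is in neither of the groups compared, and without WT TNFα replicate 3. For SMAD7, ID3, BAMBI, SKIL and SMURF1 no difference passed the threshold in either condition, and the values ranged from -0.25 for SKIL after TNFα to 0.14 for SMAD7 in untreated cells.

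In all, 1 of 10 genes passed the threshold in untreated cells (SMAD6, higher), where 6.26% of all tested genes did, and 1 of 10 after TNFα (SMURF2, lower), where 7.36% did. The samples of the 2 genotypes did not overlap for 4 of 10 genes in untreated cells, 3 higher and 1 lower, beside 25% of all tested genes. After TNFα they did not overlap for 4 of 10, 2 higher and 2 lower, beside 26.2%. Medians of the 10 log2 fold changes were 0.05 and -0.01. These comparisons use the same samples as those with TNFα, on which SMAD6 was chosen. The SMAD6 call in untreated cells is therefore a description.

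**Figure D3:**
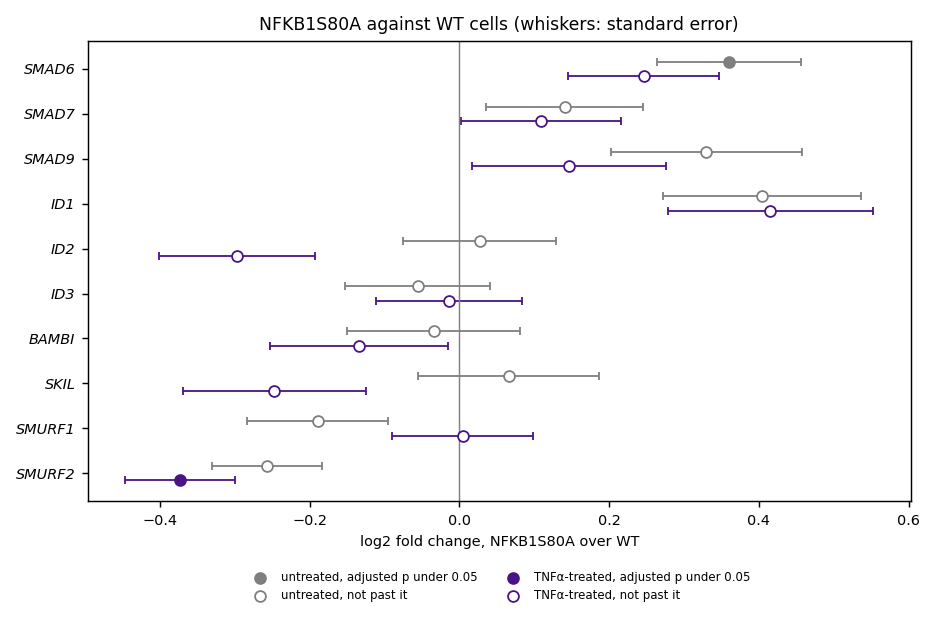
Log2 fold change of NFKB1S80A over WT cells for each gene in untreated (grey) and TNFα-treated cells (purple), with whiskers of 1 standard error. Filled circles passed an adjusted p of 0.05, which are SMAD6 untreated at 0.36 and SMURF2 after TNFα at -0.37. The ID1 circles lie at 0.40 and 0.42.

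Whether TNFα acted differently in the 2 genotypes was tested as the interaction of genotype and TNFα. None of the 10 genes passed in edgeR's test, and 0% of all tested genes did (0 of 14383, with 520 at an unadjusted p under 0.05 and 0 with DESeq2). ID2 was the 1 of 10 with an unadjusted p under 0.05, with a further log2 difference of -0.32 ± 0.15 in NFKB1S80A cells (adjusted p = 0.911), or -0.22 without NFKB1S80A untreated replicate 2 (adjusted p = 0.94). SMAD6 was chosen on the TNFα differences that this contrast compares, so its p-value here is not free of that choice. For SMAD6 the difference was -0.11 ± 0.14 (95% confidence interval -0.41 to 0.18, adjusted p = 0.921). For ID3 it was 0.04 ± 0.14 (-0.25 to 0.33, adjusted p = 0.975). That ID2 passed with TNFα in NFKB1S80A and not in WT cells is therefore not shown to be a difference between the genotypes.

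Levels of different genes were compared as CPM per kb of exon, CPM being the read count scaled to the TMM-adjusted size of the library. Exon length was the union of the exons of all GENCODE transcripts of a gene, which can be longer than the transcript in use. ID3 had the highest level in all 4 groups, from 46.7 ± 2.39 CPM per kb in NFKB1S80A cells with TNFα to 66.1 ± 2.50 in untreated WT cells, and ID2 followed with 25.8 ± 1.63 to 43.6 ± 5.61. In untreated WT cells the order continued with ID1 (10.9 ± 1.22) and BAMBI (10.3 ± 0.624), whose mean ± SD ranges overlapped. SMURF2 came next at 8.44 ± 0.266. SMURF1 (5.86 ± 0.433) and SMAD7 (5.13 ± 0.562) also overlapped, and were followed by SMAD9 (3.97 ± 0.257), SKIL (2.79 ± 0.147) and SMAD6 (2.17 ± 0.0936). SMAD6 was the lowest of the 10 in every group, at 1.43 ± 0.0592 in WT and 1.69 ± 0.127 in NFKB1S80A cells with TNFα. Its range overlapped that of SKIL in untreated NFKB1S80A cells (2.78 ± 0.221 and 2.92 ± 0.0849). The place of SMAD6 depends on its exon length of 8556 bases, the longest of the 10. By normalised counts SMAD6 (mean 344) lay above ID1 (mean 248) in untreated WT cells. With TNFα in WT cells SMURF2, ID1 and BAMBI could not be ordered (8.65 ± 0.576, 8.21 ± 0.760 and 8.12 ± 0.698).

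**Figure D4:**
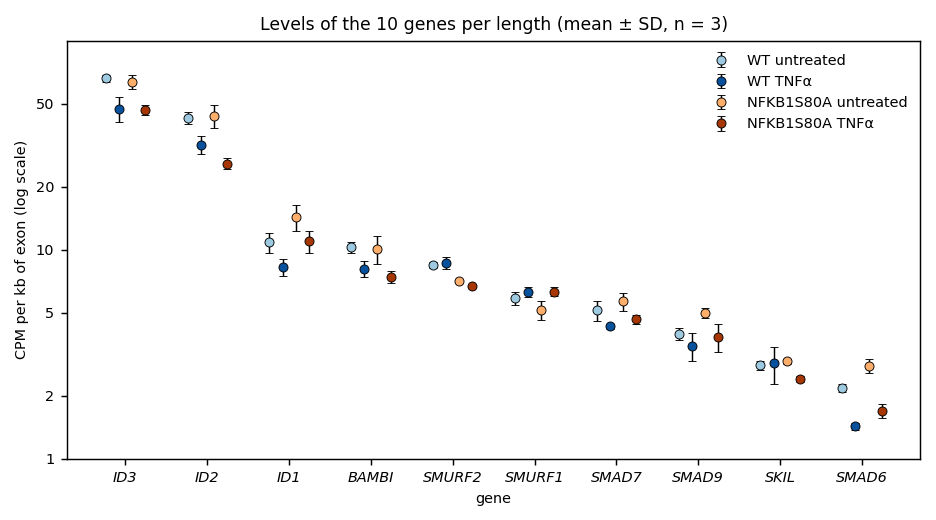
Level of each gene in the 4 groups as CPM per kb of exon (union over all transcripts of the gene) on a log axis, with the mean ± SD of 3 samples. Genes run from ID3, at 46.7 to 66.1, to SMAD6, at 1.43 to 2.78, and the ID and SMAD6 points with TNFα lie below the untreated points of the same genotype.

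The likeness of other genes to SMAD6 over the 12 samples was measured by Pearson's r of log2 CPM among 13057 genes with a mean of at least 1 CPM. These points share the 4 groups, so that r mostly reads differences between groups, and it is given with no p. The 5 highest were SEMA6D (r = 0.94), PPM1H (0.94), NR2F2 (0.94), DACT1 (0.94) and ZNF362 (0.93). These 5 genes encode, in that order, a semaphorin, a phosphatase, a nuclear receptor, a regulator of Wnt signalling and a zinc finger protein. Their log2 differences with TNFα, given with no test because the genes were picked for a pattern like that of SMAD6, ran from -1.01 for SEMA6D to -0.23 for NR2F2 in WT cells and from -0.88 for SEMA6D to -0.31 for PPM1H in NFKB1S80A cells. Of the other 9 genes SMAD7 was most like SMAD6 (r = 0.89, rank 21), ahead of SMAD9 (0.82), ID1 (0.81), ID3 (0.76), ID2 (0.69) and BAMBI (0.60). SKIL had r = 0.29, and SMURF2 (-0.30) and SMURF1 (-0.68) ran the other way.

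The wider pathway was described with 115 further genes in 8 lists, of which 83 were tested. With TNFα, 4 of the 83 were raised and none lowered in WT cells (4.82%, beside 0.688% of all tested genes), and 4 were raised and 4 lowered in NFKB1S80A cells (9.64%, beside 1.26%). The lists were drawn up with results of these data known, so these shares are a description. The raised genes all came from the list of other target genes (18 tested). What raised them was not tested, and the list name does not give a cause. JUNB, an AP-1 subunit gene, rose by 1.78 ± 0.12 in WT and 2.43 ± 0.12 in NFKB1S80A cells on the log2 scale. GADD45B, a stress-response gene, rose by 1.74 ± 0.20 and 1.69 ± 0.19, and MSX1, a homeobox gene, by 1.13 ± 0.10 and 1.18 ± 0.11. KLF10, a TGFβ-induced repressor gene, rose by 0.94 ± 0.14 and 0.78 ± 0.14, the highest adjusted p of these 8 values being 0.00753. SMAD6, ID2 and ID3 had lower counts in the same samples.

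Of the 4 genes lowered in NFKB1S80A cells, 3 came from the list named other intracellular inhibitors (17 tested). They were CITED2 (log2 fold change -0.80 ± 0.13, adjusted p = 0.00364), DACT1 (-0.61 ± 0.11, adjusted p = 0.00754) and TOB1 (-0.47 ± 0.09, adjusted p = 0.0121). The other was the co-receptor gene TGFBR3 (-0.49 ± 0.10, adjusted p = 0.0228), from 15 receptors and co-receptors tested. Of all tested genes, 0.292% were called lower. DACT1 is also among the 5 genes most like SMAD6, so its values with TNFα are a description. The list name is a label, and whether its genes inhibit the pathway in these cells was not tested. In WT cells none of the 17 genes of that list passed. The samples of CITED2 (-0.49 ± 0.13, adjusted p = 0.164), DACT1 (-0.50 ± 0.11, adjusted p = 0.0586) and TOB1 (-0.37 ± 0.09, adjusted p = 0.0821) were lower with no overlap there too. The interaction of none of these 3 passed (adjusted p from 0.911 to 0.929). The list of SMAD4 and the receptor-regulated SMADs other than SMAD9 (5 tested) had no gene past the threshold in any comparison. Nor had the E proteins that ID proteins bind (TCF3, TCF4 and TCF12). SMAD1 and SMAD5 belong, like SMAD9, to the BMP branch. Their log2 fold changes with TNFα were -0.04 ± 0.12 and 0.22 ± 0.13 in WT cells. In NFKB1S80A cells they were -0.11 ± 0.12 and -0.16 ± 0.13. No BMP or GDF ligand (11 tested), no TGFβ, activin or nodal ligand (5 tested) and no secreted antagonist (9 tested) passed with TNFα in either genotype.

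Between genotypes, 4 of the 83 genes were higher and 5 lower in untreated NFKB1S80A cells, and 3 were higher and 7 lower after TNFα. These are 10.8% and 12.0% of the 83, beside 6.26% and 7.36% of all tested genes. SNAI2 encodes a transcriptional repressor active in epithelial-mesenchymal transition. It had 446 ± 47.5 normalised counts in untreated WT and 67.2 ± 21.2 in untreated NFKB1S80A cells. Its log2 fold change was -2.72 ± 0.22 untreated (adjusted p = 3.58e-06) and -3.12 ± 0.23 after TNFα. The secreted BMP antagonist genes SOSTDC1 and CHRDL1 were lower in both conditions, by -1.87 ± 0.40 and -1.78 ± 0.45 untreated, but had at most 8 and 6 counts in any NFKB1S80A sample. FST, which encodes the activin antagonist follistatin, was higher in untreated NFKB1S80A cells (1.55 ± 0.41, adjusted p = 0.0367) with 15 to 30 counts against 6 to 8. After TNFα the FST difference was -0.02 ± 0.46 (adjusted p = 0.99). The other calls, named after their values were seen because they are few, were ACVR1C, INHBB and LDLRAD4 higher and MSX1 and TOB1 lower in untreated cells, and JUNB, BMP7 and RGMA higher and MSX1, TOB1, TGFBR3 and ZEB1 lower after TNFα. No gene of the 8 lists passed for the interaction.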

How the data were processed

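RNA of 12 HEK293T samples was sequenced from a stranded poly(A) library kit as single-end 75 bp reads. The deposited values are raw read counts per gene, which the authors made by aligning to GRCh38 with HISAT and counting with HTSeq-count; FastQC, StringTie and DESeq2 also stand in the submitters' processing notes, and their versions are not given in the sources used here. Deposited tables of the authors' own comparisons (fold changes and p-values) were not used. Of 33121 rows, 28 whose symbols had turned into dates were left out, which are not in the library totals, and 11042 of the 33093 others had no count.

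Counts were fitted in edgeR 4.0.16 (R 4.3.3) with 1 mean per group over all 12 samples, after filterByExpr (minimum count 10) and TMM scaling, by the quasi-likelihood test with Benjamini-Hochberg adjustment over 14383 genes and a threshold of 0.05. The standard error is the absolute log2 fold change divided by the root of F. Log2 CPM used a prior count of 2, and the floor was 3 counts per sample. The 10 genes had 172 to 1996 raw counts per sample in totals of 15624878 to 20889577; intervals are 95% confidence intervals of the fit. The step was tested on simulated data. Alternatives were DESeq2 1.42.0, other scalings and filters, a replicate block, the 6 samples compared alone, each sample left out, and, added after the data were seen, a GC correction. The genes and lists were chosen with earlier results of these data known. The genes named in the text are the 10, NFKB1 and NFKBIA, per comparison up to 4 listed pathway genes past the threshold with the largest change, and the 5 most like SMAD6. Outside this rule, the other listed genes past the threshold were named after their values were seen, as were ID4, SMAD1 and SMAD5. Positions and exon lengths (union over all transcripts of a gene) are from GENCODE v44 (GRCh38). Replicate pairs differed by more than sampling noise (chi-square per gene from 2.78 to 35.8), so none was counted as a duplicate.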

Additional observations from a re-analysis of the deposited data

How the results depend on the processing

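The direction of every member that passed the threshold, and of SMAD6 with TNFα, was the same under all alternatives tried, but the number past the threshold was not stable. With TNFα in WT cells, where 1 passed, 2 passed with DESeq2, with no filter and with the 6 samples compared alone (ID2 being the added one each time), and 0 to 2 with 1 sample left out. In NFKB1S80A cells, where 2 passed, 3 passed with DESeq2 (BAMBI added), 1 with the 6 samples alone, and 1 to 2 with 1 sample left out. In untreated cells of the 2 genotypes, where 1 passed, 2 passed with DESeq2 and with at least 10 counts in every sample, 3 with GC correction, 0 with no filter and with the 6 samples alone, and 0 to 2 with 1 sample left out. After TNFα, where 1 passed between genotypes, 1 to 3 passed with 1 sample left out; those added were ID2 without WT TNFα replicate 3 or NFKB1S80A untreated replicate 2 and SKIL without WT TNFα replicate 3. The interaction gave 0 under all of them. The cause of these shifts was not tested.

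With the replicate block 3 passed between genotypes in untreated cells and 2 after TNFα. Of 18 same-numbered pairs of samples from different groups 9 had correlated deviations (r over 0.1). Every pair of replicate 1 samples was among them, with r from 0.12 to 0.49. Some differently numbered pairs also passed 0.1, up to 0.44 for NFKB1S80A untreated replicate 2 and NFKB1S80A TNFα replicate 3. Mean r was 0.12 for same-numbered pairs. The mean of -0.06 for differently numbered pairs follows from that value, because deviations from a group mean cancel within the group. It is therefore no separate comparison. The main fit was kept without a block, because the labels do not say what same-numbered samples share. The block changed no other count of members.

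Reversals were all of values that did not pass. With GC correction SKIL had -0.11 and SMURF2 -0.0419 with TNFα in WT cells, and SMURF2 0.0081 in NFKB1S80A cells. Between genotypes ID3 had 0.0124, BAMBI 0.0020 and SKIL -0.0446 untreated, and SMURF1 -0.0104 after TNFα. For the interaction ID1 had -0.11, ID3 -0.0689, SKIL 0.0142 and SMURF2 0.0500. Between genotypes after TNFα, ID3 had 0.0124 with total counts and SMURF1 -0.0065 with no filter. With 1 sample left out SKIL ranged from -0.13 to 0.16 with TNFα in WT cells. Between genotypes the untreated ranges were -0.0776 to 0.0907 for ID2, -0.0944 to 0.0062 for ID3 and -0.16 to 0.0469 for BAMBI, and after TNFα -0.0901 to 0.11 for ID3 and -0.0345 to 0.0469 for SMURF1. Interaction ranges were -0.13 to 0.0574 for SMAD7, -0.0784 to 0.14 for ID1, -0.0350 to 0.16 for ID3 and -0.18 to 0.0241 for BAMBI.

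Over all genes, 99 passed with TNFα in WT cells, 158 with DESeq2 and 65 to 145 with 1 sample left out. In NFKB1S80A cells 181 passed, 258 with DESeq2, 71 with the 6 samples alone and 98 to 193 with 1 left out. Between genotypes 900 passed untreated, 1232 with the replicate block, 456 with the 6 samples alone and 356 to 1039 with 1 left out, and 1058 passed after TNFα, 1469 with the replicate block and 434 to 1646 with 1 left out. The 5 genes most like SMAD6 were the same 5 with DESeq2 size factors and with a prior count of 0.5.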
